A study of Rattus norvegicus with 13 samples.

Results

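The endocannabinoid genes described here are Cnr1, Cnrip1, Dagla, Daglb, Mgll, Abhd6, Napepld and Faah, which encode the CB1 cannabinoid receptor, a protein that binds it, and the enzymes that make and break down its lipid ligands. They were taken by gene symbol. All 8 were found, each with a single identifier, among the 14855 genes of the authors' deposited comparison of rat medial preoptic area (MPOA) tissue.

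The endocannabinoids 2-arachidonoylglycerol (2-AG) and anandamide are lipids made from membrane precursors on demand, mostly in postsynaptic cells. They travel backwards across the synapse to CB1, a receptor of the Gi/o class on axon terminals, where they lower transmitter release. The MPOA is a hypothalamic area that governs sexual and parental behaviour, and the mu opioid receptor, encoded by Oprm1, couples to the same class of G proteins as CB1.

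RNA sequencing was done on MPOA tissue of adolescent male SAS Sprague-Dawley rats. The Oprm1 shRNA group (5 samples) received an adeno-associated virus of serotype 5, AAV5-GFP-U6-Oprm1-shRNA, which carries GFP and a short hairpin RNA (shRNA) against Oprm1, and the scrambled group (7 samples) received AAV5-GFP-U6-Scr-shRNA, with the same vector parts and a scrambled hairpin. Both viruses were injected on both sides on postnatal day 21, at 0.5 uL per side, so surgery, virus and GFP are shared by the groups and no uninjected sample enters the comparison. The U6 promoter is not specific to a cell type, and the labels do not give the share of cells that took up virus. A further sample, Oprm1 shRNA number 6, is set aside by its own label as an outlier and is not counted among the 5. Which libraries entered the authors' fit is not stated in the deposited table, and the counts of 5 and 7 are taken from the labels. The labels give neither the exact age at tissue collection nor a statement that the samples come from separate rats. The p-values here thus cannot be taken to measure the spread between rats, and the spread behind them may be in part technical.

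The authors' deposited table gives, for each gene, the log2 fold change of Oprm1 shRNA over scrambled shRNA and an average abundance (CPM, read counts scaled to a common library size) over the libraries. Values of single samples were not analysed here, and the depth per sample is unknown. The targeted gene, Oprm1, came to −0.58 in log2 fold change, at 7.32 CPM, per the authors' deposited table, and its approximate 95% interval as a fold ran from 0.0715 to 6.27, so the knockdown could not be checked at this abundance. The labelled region was checked on marker genes. Of 8 preoptic markers, Calcr, Nts, Gal and Esr1 averaged 360, 81.5, 64.1 and 41.8 CPM, while Pgr, Moxd1, Hmx2 and Hmx3 were lower, at 15.2, 7.35, 3.47 and 1.03 CPM per the authors' deposited table. Of 3 cortical and hippocampal markers listed, only Slc17a7 was analysed, and it was low, at 0.785 CPM. The striatal markers ranged from 4.62 CPM for Drd1 to 35.7 CPM for Rgs9 per the authors' deposited table. Rgs9 and Ppp1r1b, the latter at 20.9 CPM, were above Pgr, Moxd1, Hmx2 and Hmx3. Whether the samples held striatal tissue was not tested. Of 40 marker genes analysed, 0 had an adjusted p under 0.05 in the authors' edgeR comparison (0.0202% of all genes). At an unadjusted p under 0.05 it called 1 (4.39% of all genes), the neuronal gene Map2 at −0.15 on the log2 scale (0.00635). Beside these shares of all genes, the counts among 40 genes are not a result about the markers.

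None of the 8 endocannabinoid genes passed the test. At an adjusted p under 0.05 the authors' deposited edgeR comparison called 0 of the 8, against 3 of all 14855 genes, or 0.0202%. At an unadjusted p under 0.05 it again called 0 of the 8, where 4.39% of all genes were called, so the count among 8 genes is not a result about them. Each of the 8 had an adjusted p of 0.9997 per the authors' deposited table. Their unadjusted p-values ran from 0.228 for Abhd6 to 0.965 for Mgll per the authors' deposited table.

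The median difference of the group was close to that of all genes. Of the 8, 3 had a positive log2 fold change and 5 a negative one per the authors' deposited table, with a median of −0.05, while 48.4% of all genes were positive and the median of all genes was −0.02. The mean of the 8 was −0.13, that of the 7 genes other than Napepld was 0.02, and the mean of the 8 weighted by precision was 0.04, so the sign of the mean turns on Napepld, the gene with the largest error. In a dissected tissue, fewer cells of a type and less RNA per cell cannot be told apart, and this holds for every value below.

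**Figure D1:**
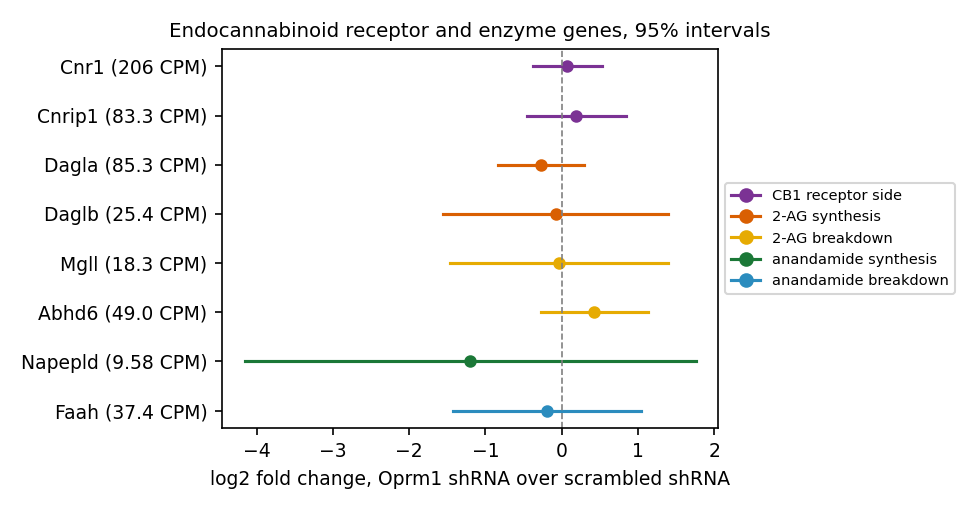
Log2 fold change of Oprm1 shRNA over scrambled shRNA for the 8 endocannabinoid genes (points, authors' deposited table) with approximate 95% intervals computed from the authors' likelihood ratio statistic (lines), coloured by role and labelled with average CPM. Every interval crosses 0, and the narrowest is that of Cnr1 at 206 CPM and the widest that of Napepld at 9.58 CPM.

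On the receptor side both genes had small positive values. Cnr1 (ENSRNOG00000008223), which encodes CB1, averaged 206 CPM and had a log2 fold change of 0.08 per the authors' deposited table (implied standard error 0.233, p = 0.741 by the authors' edgeR test). The implied standard error is the one that the authors' likelihood ratio statistic gives for the fold change. As a fold this is 1.05, with an approximate 95% interval of 0.769 to 1.45, the narrowest of the 8 genes. Cnrip1 (ENSRNOG00000005326) encodes cannabinoid receptor interacting protein 1, which binds the tail of CB1. It averaged 83.3 CPM, with a log2 fold change of 0.19 per the authors' deposited table (implied standard error 0.332, p = 0.565 by the authors' edgeR test), a fold of 1.14 from 0.727 to 1.79.

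The diacylglycerol lipases, which release 2-AG from diacylglycerol, both had negative values. Dagla (ENSRNOG00000027264), the isoform that supplies most synaptic 2-AG in the mouse brain, averaged 85.3 CPM and had a log2 fold change of −0.27 per the authors' deposited table (implied standard error 0.287, p = 0.340 by the authors' edgeR test). Its fold was 0.827, with an interval from 0.560 to 1.22. Daglb (ENSRNOG00000001079), the isoform known from mouse microglia and macrophages, averaged 25.4 CPM with a log2 fold change of −0.08 per the authors' deposited table, a fold of 0.948 with a wider interval from 0.342 to 2.63. The interval of Daglb contains the whole interval of Dagla, and the difference between the isoforms was not tested.

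Of the serine hydrolases that break down 2-AG, Abhd6 had the highest positive value of the 8 genes and Mgll the value closest to 0. Abhd6 (ENSRNOG00000008167), a hydrolase of neuronal membranes that degrades part of the brain's 2-AG, averaged 49.0 CPM with a log2 fold change of 0.43 per the authors' deposited table (implied standard error 0.357, p = 0.228 by the authors' edgeR test). This is a fold of 1.35 from 0.830 to 2.19. It ranked 2405 by p among the 14855 genes. Mgll (ENSRNOG00000014508), monoacylglycerol lipase, which degrades most 2-AG in the brain, averaged 18.3 CPM with a log2 fold change of −0.03 per the authors' deposited table. Its fold of 0.978 carries an interval from 0.363 to 2.64, which includes differences of more than 2-fold in either direction.

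The anandamide enzymes had negative values with wide errors. Napepld (ENSRNOG00000011363) encodes the phospholipase D that releases anandamide and other N-acylethanolamines from their phospholipid precursors. It averaged 9.58 CPM and had the most negative value of the 8, a log2 fold change of −1.20 per the authors' deposited table (implied standard error 1.51, p = 0.426 by the authors' edgeR test). The fold of 0.435 has an interval from 0.0561 to 3.38, and at its own implied standard error an unadjusted 95% interval would clear 1 only for a difference of about 7.76-fold or more. Faah (ENSRNOG00000045949), fatty acid amide hydrolase, the main enzyme of anandamide breakdown, averaged 37.4 CPM with a log2 fold change of −0.19 per the authors' deposited table. Its fold was 0.874, from 0.373 to 2.05 (p = 0.757 by the authors' edgeR test).

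**Figure D2:**
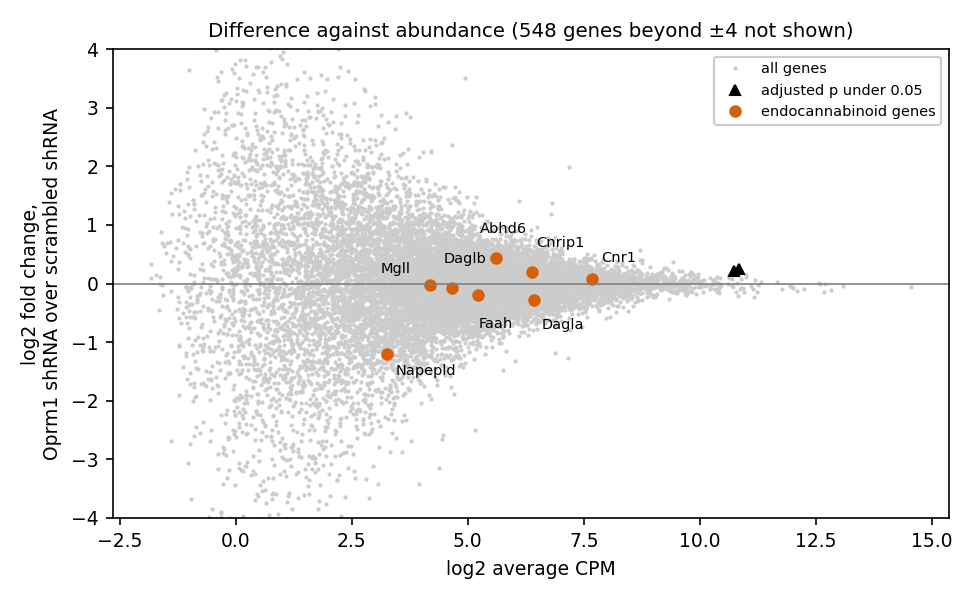
Log2 fold change of Oprm1 shRNA over scrambled shRNA (vertical axis) against log2 average CPM (horizontal axis) for all genes of the authors' deposited table (grey), genes with an adjusted p under 0.05 (black triangles) and the 8 endocannabinoid genes (orange). The 8 lie inside the cloud of genes of like abundance, and 548 genes beyond ±4, Ube2b among the called ones, are off the axis.

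These differences can be set beside those of genes with similar read numbers, as a description. Among the 2380 genes within 0.5 log2 CPM of Abhd6, the median absolute log2 fold change was 0.24 per the authors' deposited table, against 0.43 for Abhd6 itself. Among the 2055 genes around Dagla it was 0.19, against 0.27 for Dagla in absolute size per the authors' deposited table. Around Napepld it was 0.58, against 1.20 for Napepld in absolute size, and around Cnr1 0.13, against 0.08 for Cnr1 per the authors' deposited table. The value of Cnr1 was thus below the median size around it, and those of Abhd6, Dagla and Napepld were above theirs. In absolute size Daglb, Mgll and Faah, at 0.08, 0.03 and 0.19, were also below their medians of 0.34, 0.41 and 0.28. Cnrip1 was level with its median, at 0.19 for both, per the authors' deposited table.

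Precision differed widely among the genes. At these standard errors an unadjusted 95% interval clears 1 only for a difference of at least 1.37-fold for Cnr1, 1.48-fold for Dagla, 1.57-fold for Cnrip1 and 1.62-fold for Abhd6. The corresponding limits were 2.34-fold for Faah, 2.69-fold for Mgll and 2.77-fold for Daglb. To become the next gene called at an adjusted p under 0.05, Cnr1 would have needed about a 2.02-fold difference and Napepld about a 94.7-fold one at their implied standard errors. The implied standard errors were 0.910 to 1.33 times the median of genes of like abundance, with Abhd6 at the low end and Faah at the high end. CPM are not corrected for transcript length, so the order from Cnr1 to Napepld is one of read numbers and says nothing of transcripts per cell.

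**Figure D3:**
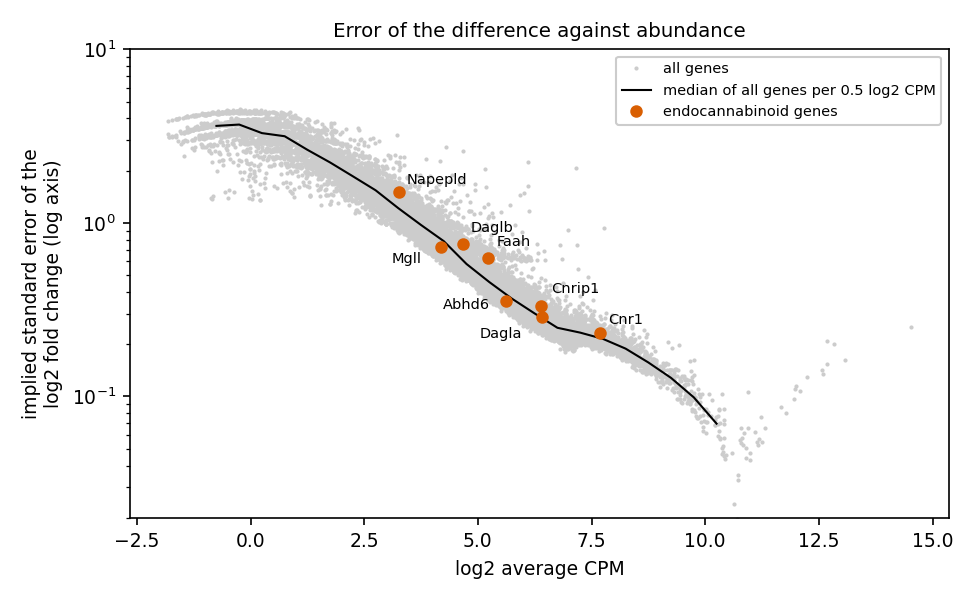
Implied standard error of the log2 fold change (vertical log axis) against log2 average CPM (horizontal axis) for all genes (grey), with the median of all genes in steps of 0.5 log2 CPM (black line) and the 8 endocannabinoid genes (orange). The 8 lie close to the line, from 0.233 for Cnr1 to 1.51 for Napepld.

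The wider pathway gave the same count. Of 34 further endocannabinoid genes listed from knowledge of the pathway, 27 were analysed, of which 15 had positive and 12 negative log2 fold changes, with a median of 0.02 per the authors' deposited table. At an adjusted p under 0.05 the authors' edgeR comparison called 0 of the 27 (0.0202% of all genes), and at an unadjusted p under 0.05 it called 1 (4.39% of all genes). That gene was Cnr2, the CB2 receptor of immune cells and microglia, with an unadjusted p of 0.0275 and a value fitted at −7.32 on the log2 scale, at 0.680 CPM per the authors' deposited table. Such a value is fitted from very few reads and is no measure of a fold. Microglial markers beside it (Cx3cr1, P2ry12, Csf1r and Tmem119) had log2 fold changes from −0.50 for Tmem119 to −0.0013 for P2ry12 per the authors' deposited table. Their unadjusted p-values ran from 0.633 to 0.999 by the authors' edgeR test, and 0 were called (0.0202% of all genes). Of these markers 4 of 4 were negative, while 48.4% of all genes were positive. The part of these markers in the Cnr2 value was not tested.

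Of 9 other receptors and targets listed, 4 were analysed and 0 passed (0.0202% of all genes). All 4 had negative values, while 48.4% of all genes were positive. They include Cnr2, near the floor, and Trpv2, at −0.02 in log2 fold change per the authors' deposited table. Trpv1, a cation channel that anandamide can open, averaged 3.64 CPM and differed by −0.43 on the log2 scale per the authors' deposited table, with a fold interval from 0.0282 to 19.5. The proteins that bind CB1 were better measured. Gprasp1, which sorts internalised receptors towards lysosomes, stood at 1778 CPM with a log2 fold change of 0.01 per the authors' deposited table, and its fold of 1.01 had the narrow interval of 0.922 to 1.10. The implied standard error of Gprasp1, 0.0659, lies in a dip of the errors, since among the 10 genes with a log2 average CPM of at least 12 the median was 0.148. Sgip1, which slows CB1 internalisation, came to 0.13 in log2 fold change, at 41.5 CPM, per the authors' deposited table (0.661 to 1.82 as a fold).

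Apart from Cnr2, for which no interval is given, the genes listed as sharing a step with the 8 also had intervals that include no difference. Abhd12, which hydrolyses 2-AG and lysophosphatidylserine, averaged 185 CPM and differed by 0.29 on the log2 scale per the authors' deposited table, a fold of 1.22 from 0.902 to 1.65 (p = 0.197 by the authors' edgeR test). With it, 2 of the 3 hydrolases of 2-AG had positive values and Mgll a value near 0, none of them called. Naaa, the lysosomal amidase of N-acylethanolamines, stood at 16.5 CPM with a log2 fold change of −0.21 per the authors' deposited table, with a fold interval from 0.271 to 2.74. Abhd4 and Gde1, which act in succession on a route to anandamide that does not need Napepld, had log2 fold changes of −0.13 at 117 CPM and 0.31 at 52.1 CPM per the authors' deposited table. Their fold intervals ran from 0.632 to 1.33 for Abhd4 and from 0.758 to 2.02 for Gde1, both far narrower than that of Napepld.

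Of the 11 other synthesis genes analysed, 5 had positive and 6 negative values per the authors' deposited table. Plcb1, a phospholipase C that makes diacylglycerol for the diacylglycerol lipases, came to −0.58 in log2 fold change, at 88.6 CPM, per the authors' deposited table (p = 0.0940 by the authors' edgeR test). Its fold was 0.668 from 0.417 to 1.07, beside a fold of 1.02 from 0.714 to 1.45 for its relative Plcb4. Ptpn22, a phosphatase tied to anandamide synthesis in mouse macrophages, was fitted at −6.81 on the log2 scale, at 0.508 CPM per the authors' deposited table (unadjusted p = 0.0574). Like Cnr2 it lies near the floor, so no fold is given.

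Of the 6 other breakdown and oxidation genes 5 had positive values, 4 of them at 5.03 CPM or less. Ces1d, a carboxylesterase, was fitted at 6.37 on the log2 scale, at 1.85 CPM per the authors' deposited table (unadjusted p = 0.0954). Of the 4 genes for fatty acid binding and trafficking, 3 were positive. Fabp3 averaged 34.1 CPM and differed by −0.81 on the log2 scale (p = 0.117) and Fabp7, a binding protein of astrocytes and radial glia, averaged 37.7 CPM and differed by 0.51 (p = 0.219) in the authors' deposited edgeR table. The fold intervals, 0.283 to 1.15 for Fabp3 and 0.812 to 2.48 for Fabp7, both include no difference.

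**Figure D4:**
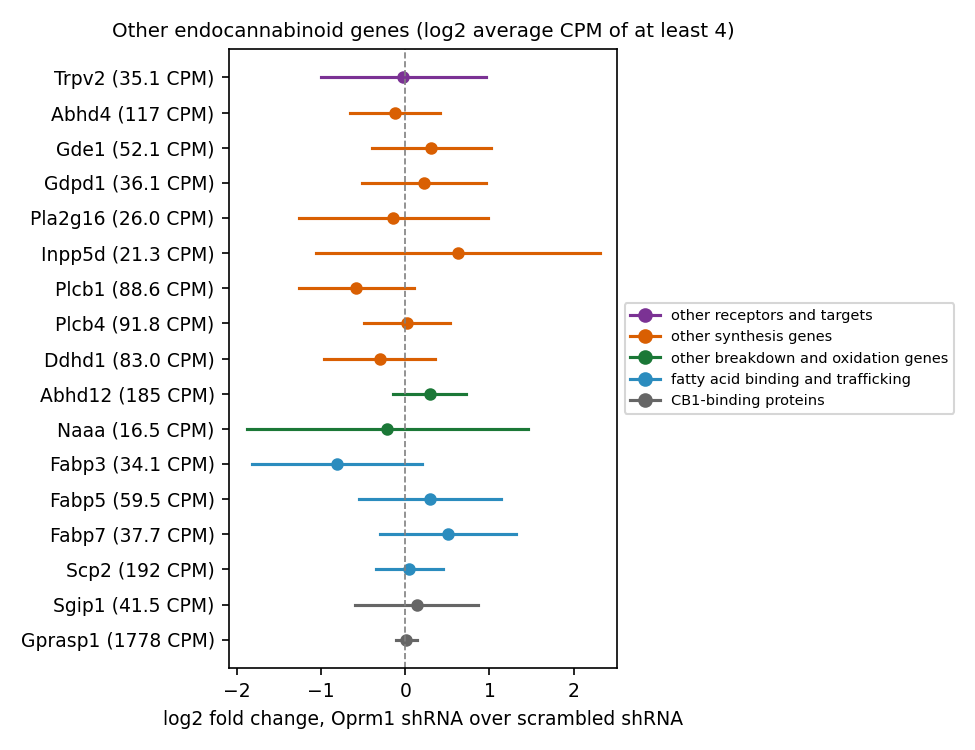
Log2 fold change of Oprm1 shRNA over scrambled shRNA with approximate 95% intervals for the 17 further endocannabinoid genes with a log2 average CPM of at least 4, coloured by group and labelled with average CPM. Every interval crosses 0, and Gprasp1, at 1778 CPM, has the narrowest.

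Marker genes of neurons were listed beside Cnr1. The vesicular GABA transporter gene Slc32a1 and the vesicular glutamate transporter gene Slc17a6, which mark the inhibitory and excitatory neurons of the region, had log2 fold changes of 0.17 and −0.27 per the authors' deposited table. The enzymes of GABA synthesis, which mark the same inhibitory neurons, had values of either sign, 0.17 for Gad1 and −0.07 for Gad2 on the log2 scale per the authors' deposited table. Markers of the cholecystokinin neurons that are rich in CB1 elsewhere in the forebrain were low, with Cck at 4.25 CPM, Slc17a8 at 7.08 CPM and Htr3a at 13.0 CPM per the authors' deposited table. Of these 7 genes 0 had an unadjusted p under 0.05 in the authors' edgeR comparison, where 4.39% of all genes were called. The count among 7 genes is thus not a result about them. Of 4 pan-neuronal markers, 1 was positive, Snap25 at 0.07 in log2 fold change, and 3 were negative. The negative values were −0.15 for Map2, −0.18 for Syt1 and −0.37 for Rbfox3 per the authors' deposited table. Their unadjusted p-values were 0.00635, 0.0892 and 0.498 by the authors' edgeR test.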

How the data were processed

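Per the submitters' processing notes, the tools were bcl2fastq 2.20, STAR 2.5.3a, RSEM and edgeR 3.28.0, with genome build Rnor_6.0. The annotation, count filter, dispersion setting, covariates and strand setting are not given in the sources used here. In all, the authors deposited 1 table of 14855 genes with a log2 fold change, a log2 average CPM, a likelihood ratio (LR) score without a fixed range, and an unadjusted and an adjusted p-value, all per the file headers. The deposited p-values were checked to be the chi-square tail of the LR, and the authors' adjusted p-values imply 14859 tests.

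Depth per sample is unknown. The implied standard error was the absolute log2 fold change over the square root of the LR, as if the LR were the square of a normal deviate. Approximate 95% intervals follow from it, except for genes under 1 CPM or beyond 5 in absolute log2 fold change, given as fitted values. The arithmetic was checked on simulated normal values, which does not test how well this approximation holds for the authors' fit. The planned count tests were not run, as the table holds 1 finished comparison. RSEM assigns reads of similar transcripts by estimation, and overlapping genes cannot be told apart without strand. No coordinates are given because the gene table at hand (GRCr8) is another assembly.

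The members and lists were chosen with earlier results of these data known. All 8 members are named. Of the further pathway genes, those past the threshold, the 2 of smallest p in each group and those sharing a step with a member are named. Plcb4, Ube2b and the markers were picked for naming after their values were seen. Of the markers, 1 is not reported here. Python 3.11.15 was used with numpy 2.4.6, scipy 1.17.1 and pandas 2.3.3.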

Additional observations from a re-analysis of the deposited data

How the results depend on the processing

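The count of 0 among the 8 genes was 0 at an adjusted p under 0.1, at an unadjusted p under 0.05, with p-values adjusted anew over all 14855 genes or only those at or above a log2 average CPM of 0, and with implied standard errors raised to those of genes of like abundance. These alternatives could not have given another count and say nothing of stability. The smallest unadjusted p of the 8 was 0.228 by the authors' edgeR test, and neither adjustment nor a larger standard error lowers a p-value. The count of 0 among the further pathway genes was 1 (Cnr2) at an unadjusted p under 0.05 and 0 in the other 3 alternatives. For single members 0 passed in any of the 24 alternative values, whose direction says nothing of stability, since the alternatives leave each log2 fold change as it is or subtract the same −0.0053 from all genes. The median log2 fold change of −0.05 was −0.05 after centring and −0.03 for the 7 genes with a log2 average CPM of at least 4, and the precision-weighted mean was 0.04. No paired analysis was possible because the deposited table holds 1 finished comparison without values per sample. For the same reason another count tool and leaving out single samples were not run. Napepld, at the lowest CPM of the 8, had the largest implied standard error, 1.26 times the median of genes of like abundance. The shares of read numbers and of spread between samples in it were not tested, since that spread enters only through the authors' LR.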
